A study of Homo sapiens with 11 samples.

Results

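Messenger RNA of 9 genes of iron storage and uptake was followed in HEK293T cells, a transformed human embryonic kidney line, after knockdown of 3 genes of ubiquitin-like protein conjugation. The genes were taken by name: the ferritin chains FTH1 and FTL, the ferritin receptor NCOA4, the uptake genes TFRC, STEAP3 and SLC11A2, the exporter SLC40A1, and the iron regulatory proteins ACO1 and IREB2. All 9 were among the 58735 genes listed in the count table, and all 9 passed the filter on low counts that left 18368 genes for testing. The study compared cells given a control siRNA (n = 3) with cells given an siRNA to NAE1 at 50 nM (siNAE1, n = 3), to UBE2M at 70 nM (siUBE2M, n = 3) or to URM1 at 60 nM (siURM1, n = 2), all harvested 48 h after transfection with RNAiMAX. NAE1 and UBE2M belong to the E1 and E2 enzymes of NEDD8 conjugation, and URM1 is a ubiquitin-like protein that also carries sulfur for tRNA thiolation. The study places the 3 genes in 1 pathway of URM1 conjugation and profiled RNA for the expression they regulate. A single siRNA sequence was used per gene, so an effect of losing the target cannot be told apart from another effect of that sequence. The samples are labelled as biological replicates of 1 cell line. The labels give the control cells a control siRNA and the study's methods include a non-targeting siRNA, while a legend of the study abbreviates the control libraries as HKWT; no dose is given for the control siRNA.

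Ferritin is a hollow shell of heavy (FTH1) and light (FTL) chains that stores iron, and NCOA4 carries it to the lysosome for breakdown. Iron enters most cells bound to transferrin through the transferrin receptor TFRC, is reduced in the endosome by STEAP3 and leaves the endosome through SLC11A2 (DMT1), while SLC40A1 (ferroportin) exports it from the cell. In iron-poor cells ACO1 (IRP1) and IREB2 (IRP2) bind hairpins called iron-responsive elements, which blocks translation of messages that carry the hairpin in the 5′ UTR and protects TFRC messages, which carry it in the 3′ UTR, from decay. IREB2 protein is itself removed by a cullin ubiquitin ligase that holds FBXL5, and cullins are the best known proteins to which NEDD8 is attached.

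The hairpins are shown because they set which members share a post-transcriptional control element and on which side of the coding region it lies. The transcripts of GENCODE v44 (GRCh38) were searched on the sense strand for the loop CAGTGN behind an unpaired C and a stem of 5 base positions, of which at least 4 had to pair (G-T pairs allowed). Each sequence is written 5′ to 3′ with 5 flanking bases on each side, and capitals mark the loop. The first 3 lie in 5′ UTRs, the remaining 4 in the 3′ UTR of TFRC.
FTH1: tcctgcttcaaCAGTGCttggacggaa
FTL: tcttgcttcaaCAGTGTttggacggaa
SLC40A1: aacttcagctaCAGTGTtagctaagtt
TFRC, element 1: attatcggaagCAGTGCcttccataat
TFRC, element 2: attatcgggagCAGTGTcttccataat
TFRC, element 3: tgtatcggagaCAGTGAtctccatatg
TFRC, element 4: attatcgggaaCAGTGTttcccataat

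The FTH1 hairpin lies at chr11:61967575-61967601 on the minus strand and was in the 5′ UTR of 7 of 8 coding transcripts. The FTL hairpin lies at chr19:48965336-48965362 on the plus strand, and that of SLC40A1 at chr2:189580662-189580688 on the minus strand, in 1 of 5 coding transcripts. The 4 TFRC hairpins lie on the minus strand at chr3:196050980-196051006, chr3:196050576-196050602, chr3:196050511-196050537 and chr3:196050464-196050490, in the 3′ UTR of 10 of 11 coding transcripts. Over 1 canonical coding transcript per gene, the same search found a match in 0.552% of 18647 5′ UTRs and in 4.32% of 19175 3′ UTRs, and 5 of the 3′ UTRs held 3 or more. SLC11A2, ACO1 and IREB2 each had 1 match with 4 paired positions in a 3′ UTR; that of SLC11A2, at chr12:50988270-50988296 on the minus strand, was present in 4 of 17 coding transcripts. No match was found in NCOA4 or STEAP3. A match is a description of the letters and was not tested for binding.

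Each library held between 11733163 and 16321391 counts assigned to genes. Each targeted gene was lowest in the cells given its siRNA, with NAE1 at 39.8 against 102 CPM (counts scaled to the same library size) in control, UBE2M at 16.8 against 265, and URM1 at 15.3 against 53.6. These were 38.9%, 6.34% and 28.6% of control, so the targets were not lowered equally. The other targets moved less: UBE2M and URM1 stood at 89.3% and 121% of control in siNAE1 cells. NAE1 and URM1 stood at 121% and 89.5% in siUBE2M cells, and NAE1 and UBE2M at 130% and 77.5% in siURM1 cells. Of 12 markers of other cell types that handle iron, 11 had at most 11 counts in any library, among them ALB (up to 9, hepatocytes), ALAS2 (up to 11) and HBB (0) of red cell precursors, and CD68 (up to 3, macrophages). The other, TF of hepatocytes, had 6 to 34. The 4 hepatocyte markers summed to 24 to 41 counts in control, 8 to 13 in siNAE1, 10 to 30 in siUBE2M and 17 to 22 in siURM1 libraries, the 4 markers of red cell precursors to 3 to 11 and the 4 of macrophages to 0 to 5 over all libraries, and their part in the results was not tested. The TMM scaling used for CPM placed the median gene 0.12 (siNAE1), 0.06 (siUBE2M) and 0.09 (siURM1) higher, on the log2 scale, than scaling by total counts would. In bulk RNA, fewer cells of a state and less RNA per cell cannot be told apart.

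The uptake genes TFRC and STEAP3 and the ferritin light chain FTL rose in every knockdown, whereas the ferritin heavy chain FTH1 did not pass the test in any of them, though it lay near the threshold in siURM1 cells and passed there under some alternatives. The test was edgeR's quasi-likelihood F test, and a gene is called changed at a p under 0.05 after Benjamini-Hochberg adjustment over all 18368 genes. In siNAE1 cells 4 of 9 members rose (TFRC, SLC40A1, STEAP3 and FTL) and none fell, where 54.7% of all genes were called (27.6% higher and 27.1% lower). In siUBE2M cells 5 of 9 rose (the same 4 and NCOA4) and none fell, against 45.3% of all genes (22.7% higher and 22.6% lower). In siURM1 cells 5 rose (STEAP3, TFRC, FTL, SLC11A2 and ACO1) and 1 fell (IREB2), against 41.6% of all genes (20.8% in each direction). The median log2 fold change of the members was 0.16, 0.26 and 0.45 in the same order, beside -0.00, 0.01 and -0.02 for all genes, and whether the members stand apart from all genes was not tested. With a change of at least 1 on the log2 scale also required, TFRC and SLC40A1 were called in siNAE1 cells (13.9% of all genes), SLC40A1 in siUBE2M cells (7.11%) and STEAP3, TFRC and FTL in siURM1 cells (7.62%). Of these, FTL fell short of 1 without siURM1 replicate 2 (0.88) and with scaling by total counts (0.95), and SLC40A1 in siUBE2M cells without control replicate 1 (0.96), control replicate 3 (0.91) or siUBE2M replicate 2 (0.89) and with scaling by total counts (0.98). With limma on FPKM, where a pseudocount shrinks low genes, SLC40A1 reached 0.40 (pseudocount 1) and 0.90 (0.1) in siUBE2M cells and 0.73 (pseudocount 1) in siNAE1 cells. Without overlap of a knockdown with control stood 4 members in siNAE1 (59.5% of all genes), 6 in siUBE2M (53.7%) and 8 in siURM1 cells (60.8%).

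**Figure D1:**
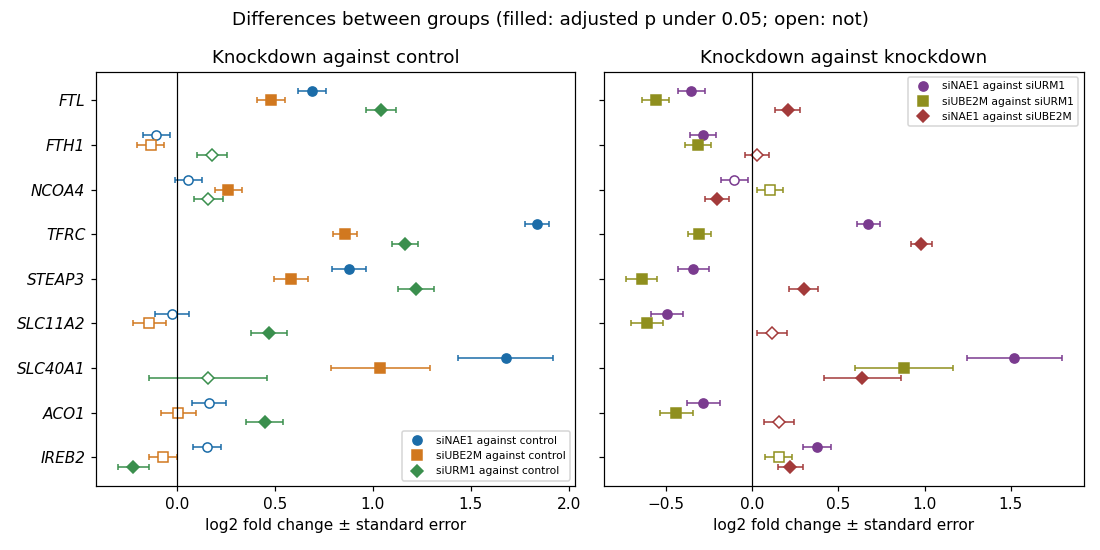
Log2 fold change of each gene (points, with bars of ± 1 standard error derived from the edgeR F statistic) in each knockdown against control on the left and between knockdowns on the right, filled where the adjusted p was under 0.05. TFRC, STEAP3 and FTL lie right of 0 in all 3 knockdowns against control, and TFRC in siNAE1 cells lies farthest right at 1.84.

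TFRC (ENSG00000072274, chr3:196027183-196082189, minus strand; coordinates here and for the other genes are those of the deposited table, GRCh38), the receptor that takes up transferrin-bound iron, had the largest change of the members in siNAE1 cells. With a library left out, SLC40A1 reached a log2 change of 1.93 there, where TFRC ran from 1.81 to 1.87. The control libraries of TFRC are given first. They measured 98.4, 90.2 and 94.8 CPM. The siNAE1 libraries measured 341, 346 and 327 CPM, the siUBE2M libraries 177, 174 and 163, and the siURM1 libraries 217 and 206. No knockdown library came near a control library, and the 4 groups did not overlap with each other. TFRC rose 3.58-fold in siNAE1 cells (log2 1.84 ± 0.06 SE, adjusted p = 1.4e-21, edgeR), which placed it at rank 216 from the highest among 18368 genes. It rose 1.81-fold in siUBE2M cells (log2 0.86 ± 0.06, adjusted p = 6.4e-13) and 2.24-fold in siURM1 cells (log2 1.16 ± 0.07, adjusted p = 5.3e-15). All neighbours in the order siNAE1, siURM1, siUBE2M, control differed: siNAE1 exceeded siURM1 by 0.67 ± 0.07 on the log2 scale (adjusted p = 1.3e-09, edgeR) and siURM1 exceeded siUBE2M (log2 of siUBE2M against siURM1 -0.31 ± 0.07, adjusted p = 4.7e-04).

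STEAP3 (ENSG00000115107, chr2:119223831-119265652, plus strand), the endosomal reductase that acts after the receptor, measured 24.6, 25.2 and 27.1 CPM in control. It measured 47.9, 47.7 and 45.8 CPM in siNAE1 cells, 38.4, 36.1 and 40.5 in siUBE2M cells, and 64.4 and 55.1 in siURM1 cells. The groups did not overlap, and the highest were the siURM1 libraries rather than those of siNAE1. STEAP3 rose 1.84-fold in siNAE1 cells (log2 0.88 ± 0.09, adjusted p = 2.9e-10, edgeR), 2.33-fold in siURM1 cells (log2 1.22 ± 0.09, adjusted p = 2.6e-12) and less in siUBE2M cells (log2 0.58 ± 0.09, adjusted p = 1.7e-06). The siNAE1 level lay below the siURM1 level by a log2 difference of -0.34 ± 0.09 (adjusted p = 0.0029, edgeR), a call that was lost without siURM1 replicate 1 (-0.23, adjusted p = 0.145).

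SLC11A2 (ENSG00000110911, chr12:50979401-51028566, minus strand), the carrier that moves reduced iron out of the endosome, rose in siURM1 cells alone among the 3 knockdowns. Its control libraries measured 62.4, 62.2 and 69.5 CPM. The siNAE1 libraries measured 64.1, 73.4 and 52.7 CPM, the siUBE2M libraries 57.6, 59.4 and 59.1, and the siURM1 libraries 91.9 and 87.1. Both siURM1 libraries were above the other 9 libraries, siNAE1 overlapped control, and the siUBE2M libraries lay just below control. SLC11A2 rose 1.38-fold in siURM1 cells (log2 0.47 ± 0.09, adjusted p = 1.2e-04, edgeR), with log2 values of -0.02 ± 0.09 (adjusted p = 0.831) in siNAE1 and -0.14 ± 0.09 (adjusted p = 0.190) in siUBE2M cells. The difference between knockdowns passed its own test, at -0.49 ± 0.09 for siNAE1 against siURM1 (adjusted p = 8.1e-05) and -0.61 ± 0.09 for siUBE2M against siURM1 (adjusted p = 4.9e-06). siNAE1 against siUBE2M gave 0.12 ± 0.09 (adjusted p = 0.298), which passed without siNAE1 replicate 3 (0.24, adjusted p = 0.0193).

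**Figure D2:**
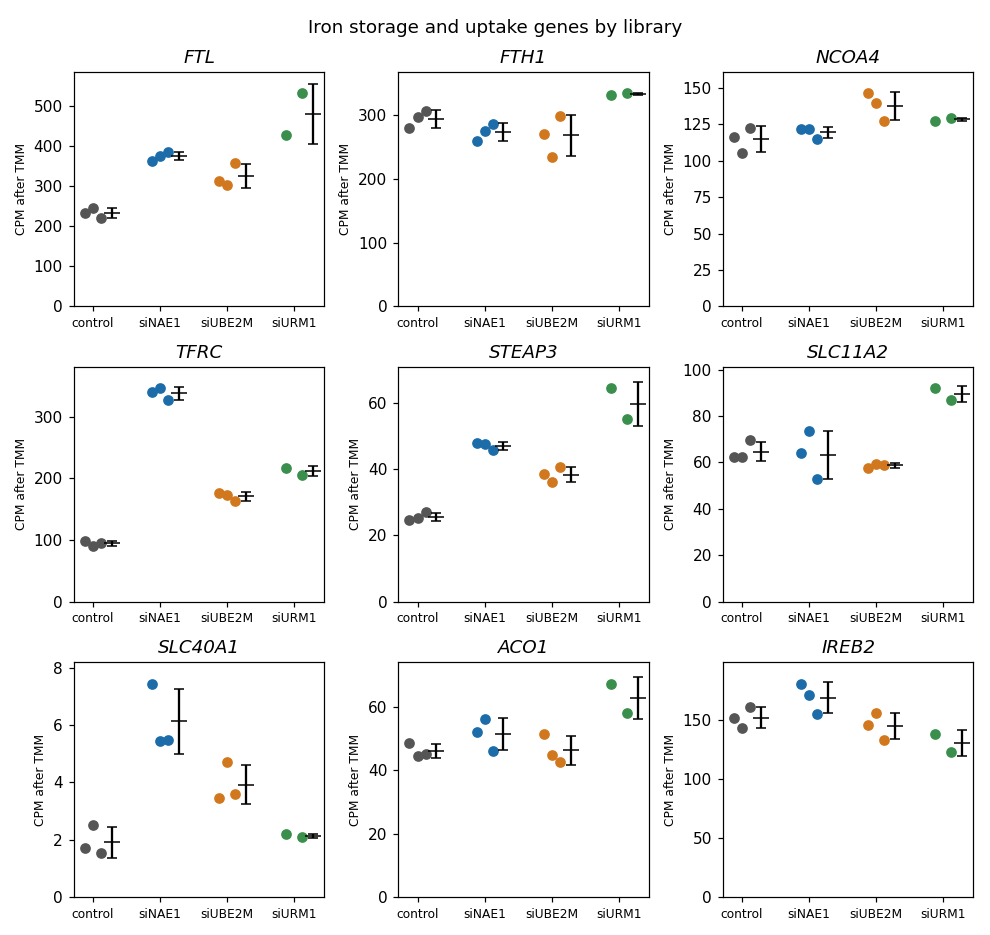
CPM after TMM scaling (vertical axis from 0, one panel per gene) of each library as a point, with the group mean ± SD beside it (n = 3, 3, 3 and 2). TFRC, STEAP3 and FTL stand above every control library in all knockdown libraries, while FTH1 lies between 235 and 334 CPM in all 11 libraries.

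FTL (ENSG00000087086, chr19:48965301-48966878, plus strand), the light chain that lines the core of the ferritin shell, measured 233, 247 and 220.0 CPM in control. It measured 364, 376 and 386 CPM in siNAE1 cells, 314, 304 and 359 in siUBE2M cells, and 428 and 533 in siURM1 cells. Every knockdown library was above every control library, and the pair of siURM1 libraries lay farther apart than those of any other group. FTL rose 1.61-fold in siNAE1 cells (log2 0.69 ± 0.07, adjusted p = 9.1e-10, edgeR), 1.40-fold in siUBE2M cells (log2 0.48 ± 0.07, adjusted p = 1.4e-06) and 2.06-fold in siURM1 cells (log2 1.04 ± 0.08, adjusted p = 2.0e-12). siNAE1 against siURM1 gave -0.35 ± 0.08 (adjusted p = 4.6e-04, edgeR), but -0.19 (adjusted p = 0.109) without siURM1 replicate 2. siNAE1 against siUBE2M gave 0.21 ± 0.07 (adjusted p = 0.0180), a call lost without siUBE2M replicate 1 (0.17, adjusted p = 0.0986) or replicate 2 (0.15, adjusted p = 0.141), with scaling by total counts (0.14, adjusted p = 0.0958) and with limma on FPKM (adjusted p = 0.0977 and 0.0971 with pseudocounts of 1 and 0.1).

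FTH1 (ENSG00000167996, chr11:61959718-61967660, minus strand), the heavy chain whose ferroxidase site oxidises iron for storage, did not follow its partner. It measured 279, 297 and 306 CPM in control and 259, 275 and 286 in siNAE1 cells. It measured 271, 235 and 299 CPM in siUBE2M cells and 332 and 334 in siURM1 cells. The siNAE1 and siUBE2M libraries overlapped with control, and both siURM1 libraries lay above control. Against control, the log2 values were -0.10 ± 0.07 in siNAE1 (adjusted p = 0.195), -0.13 ± 0.07 in siUBE2M (adjusted p = 0.109) and, for siURM1 cells, 0.18 ± 0.08 (adjusted p = 0.0530), all by edgeR. Scaled by total counts, which lowers all genes in the knockdowns, FTH1 passed as lower in siNAE1 (-0.23, adjusted p = 0.0028) and siUBE2M cells (-0.19, adjusted p = 0.0134). It also passed in siUBE2M cells without siUBE2M replicate 3 (-0.22, adjusted p = 0.0081) and in siURM1 cells without control replicate 3 (0.22, adjusted p = 0.0411), with no filter on low counts (0.19, adjusted p = 0.0347) and with only the 2 groups in the fit (0.19, adjusted p = 0.0163). With the replicate number as a block FTH1 passed in siURM1 cells too (0.23, adjusted p = 0.0096, edgeR). Between knockdowns FTH1 was lower in siNAE1 (-0.29 ± 0.08, adjusted p = 0.0029) and siUBE2M (-0.31 ± 0.08, adjusted p = 0.0013) than in siURM1 cells.

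Other genes could share reads with the ferritin genes. The table lists 25 FTH1 pseudogenes, 15 of them with a count, and they summed to 0.847% to 1.75% of the FTH1 count per library, FTH1P2 being the highest. The 16 FTL pseudogenes summed to 0.299% to 0.691% of FTL, with FTLP12 the highest. BEST1, a channel gene on the opposite strand, overlaps FTH1 by 5798 bases, and its counts were 487 to 602 in control, 19 to 29 in siNAE1, 72 to 98 in siUBE2M and 51 to 53 in siURM1 libraries. The log2 changes of BEST1 were -4.15, -2.51 and -3.25 (adjusted p = 8.1e-20, 4.3e-16 and 2.9e-16, edgeR). The libraries were made with a stranded kit. The strand setting of the counting and its treatment of reads with several matches are not given in the sources used here. Pseudogene counts hold only reads assigned to a pseudogene, so they set no bound on shared reads. The part of shared reads in the FTH1, FTL and BEST1 values was not tested.

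The balance of the chains was also measured within each library, as the log2 ratio of their FPKM, which needs no scaling between libraries but keeps any shared reads. FTH1 to FTL stood at -0.95, -0.94 and -0.73 in control and at -1.70, -1.66 and -1.64 in siNAE1 libraries. It stood at -1.42, -1.58 and -1.47 in siUBE2M and at -1.57 and -1.88 in siURM1 libraries. Every knockdown library had relatively less FTH1 than every control library. The mean ratio was 0.546 in control, 0.315 in siNAE1, 0.355 in siUBE2M and 0.302 in siURM1 cells, and the groups differed (exact permutation test over 92400 arrangements of the 11 libraries, p = 0.0028). The ratio shows an unequal change of the chains, not which of them moved.

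TFRC to FTH1, the uptake receptor over the heavy chain, gave log2 ratios of -3.46, -3.68 and -3.65 in control and -1.56, -1.62 and -1.77 in siNAE1 libraries. It gave -2.57, -2.40 and -2.83 in siUBE2M and -2.57 and -2.66 in siURM1 libraries. The siNAE1 libraries were the highest, control the lowest, and siUBE2M and siURM1 overlapped between them. The mean ratio was 0.0827 in control, 0.318 in siNAE1, 0.165 in siUBE2M and 0.164 in siURM1 cells (exact permutation test over the 4 groups, p = 5.8e-04). With 2 or 3 libraries a group, no pair of groups can pass such a test alone, so pairs were not tested. Both ratio tests rest on the same reads as the tests of the single genes and are not separate support for them.

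**Figure D3:**
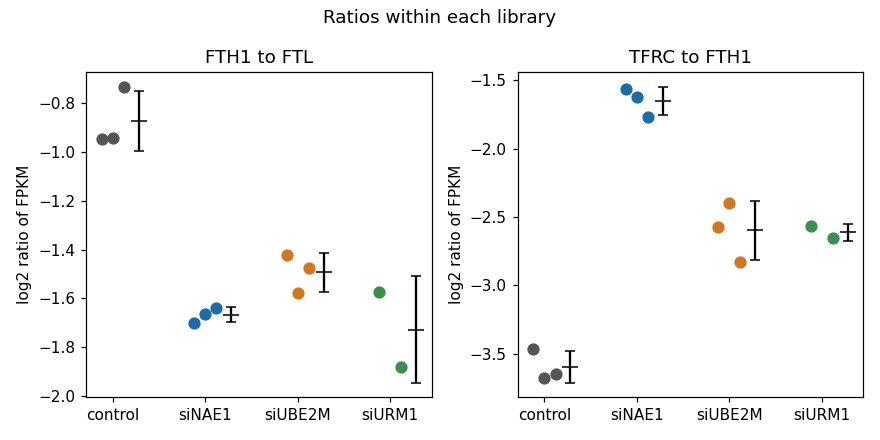
Log2 ratio of FPKM within each library (points) with the group mean ± SD, for FTH1 to FTL and for TFRC to FTH1. All control points lie above the knockdown points in the first panel and below them in the second.

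NCOA4 (ENSG00000266412, chr10:46005088-46030714, minus strand), the receptor that delivers ferritin to autophagy, measured 116, 105 and 122 CPM in control and 121, 122 and 115 in siNAE1 cells. It measured 146, 139 and 127 CPM in siUBE2M cells and 127 and 129 in siURM1 cells. Only the siUBE2M and siURM1 libraries were all above control. NCOA4 rose 1.20-fold in siUBE2M cells (log2 0.26 ± 0.07, adjusted p = 0.0019, edgeR), with values of 0.16 ± 0.08 in siURM1 (adjusted p = 0.0861) and 0.06 ± 0.07 in siNAE1 cells (adjusted p = 0.487). The siURM1 value passed without control replicate 3 (0.22, adjusted p = 0.0312). siNAE1 lay below siUBE2M (-0.20 ± 0.07, adjusted p = 0.0147), a call lost without siNAE1 replicate 3 (-0.17, adjusted p = 0.0715) or siUBE2M replicate 1 (-0.16, adjusted p = 0.0910).

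SLC40A1 (ENSG00000138449, chr2:189560579-189583758, minus strand), the iron exporter, was the member with the lowest level and the widest errors. It had 28, 41 and 24 counts in the control libraries, or 1.69, 2.52 and 1.51 CPM. It measured 7.45, 5.45 and 5.47 CPM in siNAE1, 3.46, 4.72 and 3.58 in siUBE2M, and 2.18 and 2.08 in siURM1 cells, where 35 and 30 counts stood behind the values. The siNAE1 and siUBE2M libraries were above control, and the siURM1 libraries lay within its range. SLC40A1 rose 3.20-fold in siNAE1 (log2 1.68 ± 0.24, adjusted p = 5.7e-07, edgeR) and 2.05-fold in siUBE2M cells (log2 1.04 ± 0.25, adjusted p = 9.9e-04), with 0.16 ± 0.30 in siURM1 cells (adjusted p = 0.709). siNAE1 exceeded siURM1 by 1.52 ± 0.28 (adjusted p = 4.3e-05). siUBE2M exceeded siURM1 by 0.88 ± 0.28 (adjusted p = 0.0147), which did not pass without siUBE2M replicate 2 (adjusted p = 0.0777), siURM1 replicate 1 (0.0697) or siURM1 replicate 2 (0.0839). siNAE1 exceeded siUBE2M by 0.64 ± 0.23 (adjusted p = 0.0210), and that call was lost with DESeq2 (adjusted p = 0.0616) and without siNAE1 replicate 1 (0.140), siUBE2M replicate 1 (0.0848) or siUBE2M replicate 3 (0.0673).

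ACO1 (ENSG00000122729, chr9:32384603-32454769, plus strand), which is either an aconitase or an iron regulatory protein depending on its iron-sulfur cluster, measured 48.5, 44.5 and 45.2 CPM in control and 52.1, 56.3 and 46.2 in siNAE1 cells. It measured 51.5, 45.1 and 42.6 CPM in siUBE2M and 67.5 and 58.1 in siURM1 cells. The siURM1 libraries were the highest of all 11, and the other groups overlapped. ACO1 rose 1.36-fold in siURM1 cells (log2 0.45 ± 0.10, adjusted p = 2.7e-04, edgeR), with 0.16 ± 0.09 (adjusted p = 0.115) in siNAE1 and 0.01 ± 0.09 (adjusted p = 0.950) in siUBE2M cells. The siNAE1 value passed without siNAE1 replicate 3 (0.24, adjusted p = 0.0323). siUBE2M lay below siURM1 (-0.44 ± 0.10, adjusted p = 5.0e-04), as did siNAE1 (-0.28 ± 0.10, adjusted p = 0.0185), although the latter was not called without siNAE1 replicate 3 (-0.21, adjusted p = 0.0963) or siURM1 replicate 1 (-0.17, adjusted p = 0.313), or with limma on log2(FPKM + 1) (adjusted p = 0.0599) or log2(FPKM + 0.1) (adjusted p = 0.0597). siNAE1 against siUBE2M gave 0.16 ± 0.09 (adjusted p = 0.156), which passed without siNAE1 replicate 3 (0.24, adjusted p = 0.0405).

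IREB2 (ENSG00000136381, chr15:78437431-78501456, plus strand), the regulatory protein that is controlled by degradation, measured 152, 144 and 161 CPM in control and 181, 171 and 155 in siNAE1 cells. It measured 146, 156 and 133 CPM in siUBE2M and 138 and 123 in siURM1 cells. The siURM1 libraries were below control, and the other groups overlapped with it. IREB2 fell by 0.22 on the log2 scale in siURM1 cells (SE 0.08, adjusted p = 0.0253, edgeR), with 0.15 ± 0.07 in siNAE1 (adjusted p = 0.0673) and -0.07 ± 0.07 in siUBE2M cells (adjusted p = 0.454). The siURM1 call was lost without control replicate 1 (adjusted p = 0.0587), control replicate 3 (0.129) or siURM1 replicate 2 (-0.13, adjusted p = 0.327), and with limma on FPKM (0.0752 and 0.0743 with pseudocounts of 1 and 0.1). The siNAE1 value passed without control replicate 3 (0.20, adjusted p = 0.0379) or siNAE1 replicate 3 (0.21, adjusted p = 0.0177). siNAE1 exceeded siURM1 by 0.37 ± 0.08 (adjusted p = 3.4e-04) and siUBE2M by 0.22 ± 0.07 (adjusted p = 0.0113), the latter lost without siNAE1 replicate 1 (0.17, adjusted p = 0.0804) or siUBE2M replicate 3 (0.16, adjusted p = 0.0743) and with scaling by total counts (0.15, adjusted p = 0.0952). siUBE2M against siURM1 gave 0.15 ± 0.08 (adjusted p = 0.141), which passed without siUBE2M replicate 3 (0.21, adjusted p = 0.0415).

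Between knockdowns, 8 of 9 members differed between siNAE1 and siURM1 (38.6% of all genes, 19.5% higher and 19.1% lower), 7 between siUBE2M and siURM1 (35% of all genes, 16.7% higher and 18.3% lower) and 6 between siNAE1 and siUBE2M (44.3%, 22.7% higher and 21.6% lower). The last count ran from 3 to 7 with 1 library left out, where 7099 to 7772 of all genes were called. In the same order, 1 (SLC40A1), 0 and 0 members also reached a change of 1 on the log2 scale (6.76%, 5.41% and 7.84% of all genes), and 9, 7 and 5 members had groups that did not overlap (56.6%, 55.5% and 50.7%). SLC40A1 fell short of 1 in siNAE1 against siURM1 with limma on log2(FPKM + 1) (0.68), and TFRC reached 1.01 in siNAE1 against siUBE2M without siNAE1 replicate 3. Against siURM1, TFRC, SLC40A1 and IREB2 were higher in siNAE1 cells, and FTL, FTH1, STEAP3, SLC11A2 and ACO1 were lower. For siUBE2M against siURM1, SLC40A1 was higher and TFRC was lower, together with the same 5 genes. siNAE1 cells had more FTL, IREB2, SLC40A1, STEAP3 and TFRC than siUBE2M cells and less NCOA4. Each of these comparisons shares libraries with those against control.

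On the scale of FPKM, which divides by the listed exon length and so allows levels of different genes to be compared, the ferritin chains were the most abundant members in every group. In control FTL stood at 263 ± 15.6 FPKM (SD, n = 3), FTH1 at 144 ± 7.17, NCOA4 at 27.8 ± 2.10 and IREB2 at 14.0 ± 0.779. TFRC at 11.9 ± 0.459 FPKM followed in control. SLC11A2 (6.32 ± 0.412), ACO1 (6.05 ± 0.253) and STEAP3 (5.57 ± 0.288) lay close together, and SLC40A1 was the lowest at 0.437 ± 0.125 FPKM. TFRC took the third rank in siNAE1 cells at 42.3 ± 1.25 FPKM, above NCOA4, and the fourth in siUBE2M (21.5 ± 0.851) and siURM1 cells (26.6 ± 1.01).

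The genes whose profile was most like each of 3 members were sought by Pearson correlation of log2 CPM over the 11 libraries, among 10467 genes that averaged 10 CPM or more. The libraries fall into 4 groups and share a depth range. The values of r take in differences between groups together with spread within groups, and they were not tested. TFRC was most like WDR37 (r = 0.992), the glycolytic enzyme PGAM1 (0.990) and ACLY (0.987), which makes cytosolic acetyl-CoA. FTL was most like ADAMTS2 (r = 0.980), the ribosomal protein gene RPL29 (0.979) and HIST3H2A (0.974). FTH1 was most like PGM1 (r = 0.952), MAP2K2 (0.916) and the mitochondrial gene MT-CYB (0.904). Among the members, STEAP3 was at rank 60 from FTL (r = 0.938), whereas FTH1 was at rank 3764 from FTL (r = 0.324).

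The wider iron pathway was described with 6 lists of iron genes, in which ACO1, IREB2 and NCOA4 are counted too; whether a list stands apart from all genes, of which 54.7%, 45.3% and 41.6% were called in siNAE1, siUBE2M and siURM1 cells, was not tested. Of 12 genes of iron sensing, 4 rose and 3 fell in siNAE1, 4 rose and 1 fell in siUBE2M, and 4 rose and 1 fell in siURM1 cells. FBXL5, the iron-sensing receptor for IREB2 degradation, named here after its values were seen, rose in each (log2 0.39 ± 0.08, 0.43 ± 0.08 and 0.36 ± 0.08, adjusted p = 5.0e-05, 1.7e-05 and 7.8e-04, edgeR). Of 10 tested genes of other uptake, reduction and export, 4, 4 and 1 rose and 3, 1 and 1 fell, in the same order of knockdowns. CYBRD1, a plasma membrane ferrireductase, rose 2.48-fold in siUBE2M cells (8.43 ± 0.429 to 20.9 ± 1.67 CPM, log2 1.31 ± 0.12, adjusted p = 2.4e-10) and by 0.43 ± 0.13 in siNAE1 cells (adjusted p = 0.0064, or 0.0512 without siNAE1 replicate 1 and 0.0546 with scaling by total counts, which gave 0.30), with 0.21 ± 0.15 in siURM1 cells (adjusted p = 0.273). TF, which encodes transferrin, had 18 to 34 counts in control and 6 to 7 in siNAE1 libraries, a fitted log2 change of -1.77 ± 0.48 (adjusted p = 0.0022, edgeR) that did not pass with limma on log2(FPKM + 1) (adjusted p = 0.210) or log2(FPKM + 0.1) (adjusted p = 0.0664). In siUBE2M cells TF gave -1.03 ± 0.43 (adjusted p = 0.0526), which passed without control replicate 1 (-1.26, adjusted p = 0.0304) or siUBE2M replicate 3 (-1.53, adjusted p = 0.0159), with only the 2 groups in the fit (-1.03, adjusted p = 0.0367) and with scaling by total counts (-1.09, adjusted p = 0.0407). Its value in siURM1 cells was -0.69 ± 0.47 (adjusted p = 0.253).

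Of 20 tested genes of mitochondrial iron and heme, 10 rose and 5 fell in siNAE1, 7 rose and 5 fell in siUBE2M, and 9 rose and 5 fell in siURM1 cells, where 27.6%, 22.7% and 20.8% of all genes rose and 27.1%, 22.6% and 20.8% fell. HMOX1, the heme oxygenase that frees iron from heme, had the largest rise of the listed genes in siNAE1 and siURM1 cells. It went from 12.4 ± 1.28 CPM in control to 53.5 ± 3.19 in siNAE1, 17.3 ± 3.56 in siUBE2M and 44.9 ± 1.12 in siURM1 cells. These were changes of 4.30-fold (log2 2.10 ± 0.11, adjusted p = 2.3e-16, edgeR), 1.39-fold (0.48 ± 0.12, adjusted p = 0.0017) and 3.61-fold (1.85 ± 0.12, adjusted p = 1.2e-13). CPOX, a late enzyme of heme synthesis, rose by 0.79 ± 0.08 in siNAE1 and 1.23 ± 0.08 in siURM1 cells (adjusted p = 4.1e-10 and 3.1e-13), with 0.07 ± 0.08 in siUBE2M cells (adjusted p = 0.519). UROS, another enzyme of that path, fell in siNAE1 and siUBE2M cells (log2 -0.84 and -1.14, SE 0.07 for both, adjusted p = 1.5e-11 and 4.0e-14). Its value of -0.22 ± 0.08 in siURM1 cells (adjusted p = 0.0221) did not pass without control replicate 1 (0.0698), control replicate 2 (0.0936) or siURM1 replicate 1 (-0.16, adjusted p = 0.260), or with limma on log2(FPKM + 0.1) (0.0512).

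Iron-sulfur clusters, which ACO1 needs for its aconitase form, are built by a further list. Of its 23 tested genes, 12 rose and 4 fell in siNAE1, 5 rose and 7 fell in siUBE2M, and 6 rose and 8 fell in siURM1 cells, beside the shares of all genes just given for the heme list. NFS1, the cysteine desulfurase that supplies the sulfur, measured 28.6 ± 1.45 CPM in control, 57.3 ± 1.36 in siNAE1, 48.6 ± 2.00 in siUBE2M and 39.1 ± 0.470 in siURM1 cells. It rose in each knockdown, by 1.00 ± 0.08, 0.77 ± 0.08 and 0.45 ± 0.09 on the log2 scale (adjusted p = 2.6e-12, 1.9e-09 and 1.0e-04, edgeR). Of 10 tested iron chaperone and ferritinophagy genes, which include NCOA4, 1, 2 and 1 rose and 3, 3 and 3 fell, and of 5 other transcripts with a described iron-responsive element, 1, 1 and 1 rose and 2, 3 and 1 fell. No list held calls in a single direction in any knockdown.

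**Figure D4:**
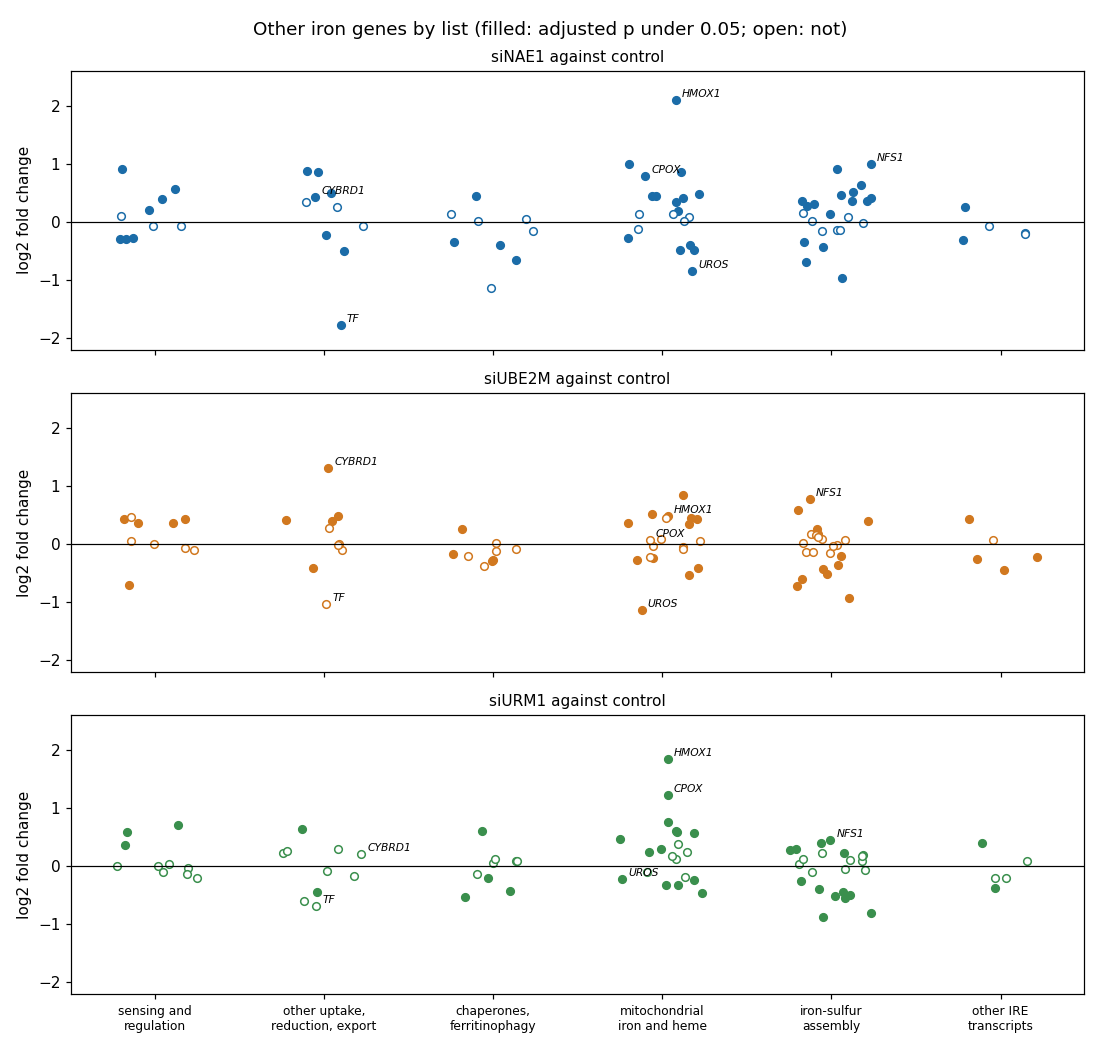
Log2 fold change against control (vertical axis) of the other iron genes, one point per gene, in columns by list and in 1 panel per knockdown, filled where the adjusted p was under 0.05; the 9 members are left out, IRE stands for iron-responsive element, and labels name genes that reached 1 in any knockdown. HMOX1 is the highest point in siNAE1 and siURM1 cells, and in each list points lie on both sides of 0.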

How the data were processed

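RNA of 11 HEK293T samples (poly(A) selected, dUTP strand marking, paired-end reads) was analysed. Per the labels and the study's methods, the authors used fastp for trimming, HISAT2 2.0.5 for alignment to GRCh38 and featureCounts 1.5.0-p3 for counting, and deposited a table of raw counts and a table of FPKM, each for 58735 genes. The strand setting, the treatment of reads with several matches and the annotation release are not given in the sources used here. From the deposited counts (11733163 to 16321391 per library), genes were filtered with filterByExpr, leaving 18368 of 36039 genes with a count, scaled by TMM and tested with edgeR 4.0.16 (R 4.3.3): glmQLFit and glmQLFTest on all 4 groups without covariates, Benjamini-Hochberg adjustment over all tested genes, threshold 0.05. The biological coefficient of variation was 7.06%. CPM was computed from the deposited counts after TMM scaling. Values after ± are SD for levels and SE for log2 fold changes. The SE was derived as the absolute log2 fold change divided by the square root of the F statistic. The edgeR p-values weigh a difference between groups against the spread within groups, estimated over all 4 groups with information shared over genes. The samples are replicates of a single cell line. The deposited FPKM served for levels between genes and for ratios within a library, which were tested by exact permutation over all 4 groups (two-sided in the sense of any difference).

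The members and lists were chosen with earlier results of these data known. The genes named are the members, the targeted genes, listed iron genes past the threshold and a 2-fold change in any knockdown (at most 4 a list), overlapping genes, pseudogenes and the 3 genes most like FTH1, FTL and TFRC. FBXL5 and the genes of the closing section were added after their values were seen. Alternatives were DESeq2 1.42.0, RLE scaling, no filter, a minimum of 10 counts in every library, 2 groups per fit, a replicate block, limma 3.58.1 on log2(FPKM + 1) and log2(FPKM + 0.1), leaving out each library and, added after the data were seen, scaling by total counts. No pair of libraries in a group was identical. Same-numbered samples did not deviate together in any of 15 pairs (no correlation over 0.1). Untested for low counts were, among others, HAMP, TFR2, HFE, CP and HEPH.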

Additional observations from a re-analysis of the deposited data

Results flagged for a closer look

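For 3 members (FTH1, IREB2 and SLC11A2) the estimates had opposite signs in different knockdowns against control, with a direct test between those knockdowns that passed (edgeR, adjusted p under 0.05). FTH1 was lower in siNAE1 than in siURM1 cells by a log2 difference of -0.29 and lower in siUBE2M than in siURM1 cells by -0.31, although none of its values against control passed. IREB2 was higher in siNAE1 than in siURM1 cells by 0.37 and higher in siNAE1 than in siUBE2M cells by 0.22, and of its values against control only that of siURM1 passed. That siURM1 call was lost without control replicate 1 or 3 and with limma on FPKM. The call between siNAE1 and siUBE2M was lost without siNAE1 replicate 1 or siUBE2M replicate 3 and with scaling by total counts. SLC11A2 was lower in siNAE1 than in siURM1 cells by -0.49 and lower in siUBE2M than in siURM1 cells by -0.61, and its rise in siURM1 cells was the only value against control that passed. The sign of SLC11A2 in siNAE1 against control is not settled: the estimate was -0.02 ± 0.09 (SE) and turned to 0.089 without siNAE1 replicate 3.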

How the results depend on the processing

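Of 1396 comparisons of a fold change with its value under an alternative, 1323 kept direction and side of the threshold, 43 lost and 19 gained a call, and 11 changed sign. These pool the members with BEST1 and named genes of the iron lists, some of which were named for a large change. No call against control of TFRC, FTL or STEAP3 was lost, nor that of SLC40A1 in siNAE1 or siUBE2M cells. None of the sign changes concerned a called value. Under scaling by total counts NCOA4 in siNAE1 went to -0.066, BACH1 in siURM1 to -0.049, ACO1 in siUBE2M to -0.049 and FTH1 in siNAE1 against siUBE2M to -0.038. With a minimum of 10 counts in every library ACO1 in siUBE2M went to -0.0015. Leaving out 1 library, SLC11A2 in siNAE1 ranged from -0.14 to 0.089 (without siNAE1 replicate 3), ACO1 in siUBE2M from -0.064 (without siUBE2M replicate 1) to 0.066, FTH1 in siNAE1 against siUBE2M from -0.068 (without siUBE2M replicate 2) to 0.11 and SLC11A2 in that comparison from -0.0056 (without siNAE1 replicate 2) to 0.24, where it passed (without siNAE1 replicate 3, adjusted p = 0.0193, edgeR). IREB2 in siURM1 cells did not pass with limma (adjusted p = 0.0752 and 0.0743); the cause was not tested. Requiring also a log2 change of 1 left 2, 1 and 3 members called in siNAE1, siUBE2M and siURM1 cells against control, 1 for siNAE1 against siURM1 and 0 for each of siUBE2M against siURM1 and siNAE1 against siUBE2M, where the edgeR counts without that requirement were 7 and 6. Over all alternatives that requirement left 1 to 2, 0 to 1 and 2 to 3 members called against control, 0 to 1 for siNAE1 against siURM1, 0 to 1 for siNAE1 against siUBE2M and 0 for siUBE2M against siURM1. Leaving out 1 library other than those of siURM1 gave 4 to 6, 5 to 6 and 5 to 7 members called against control. It gave 6 to 8 for siUBE2M against siURM1 and 3 to 7 for siNAE1 against siUBE2M, the 3 being without siUBE2M replicate 1. In the same order those fits called 9225 to 9421, 7289 to 7618, 6844 to 6931, 5468 to 6218 and 7099 to 7772 of all genes. The main fit called 10047, 8317, 7641, 6427 and 8134. For siNAE1 against siURM1 only the call of ACO1 was lost, without siNAE1 replicate 3. Fits without a siURM1 library leave 1 sample in that group and are not counted here. Leaving out any 1 library moved the span of the group means between 0.783 and 1.01 for FTH1 to FTL and between 1.90 and 2.01 for TFRC to FTH1.

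The replicate numbers did not pair the samples: correlations of same-numbered deviations ran from -0.07 to 0.08 over 15 pairs, and a library correlated best with its own number in 10 of 30 comparisons with another group. With the replicate number as a block, TF in siUBE2M cells passed (-1.06, adjusted p = 0.0476, edgeR), as did FTH1 in siURM1 cells (0.23, adjusted p = 0.0096), which made 7 members called there, and the other member counts kept their values of 4, 5, 8, 7 and 6. Over all genes the block moved calls against control from 10047 to 9990, 8317 to 8290 and 7641 to 7428. Permuted within replicate numbers, the ratios gave exact p = 0.0122 and 0.0069. SLC40A1 and TF had under 100 counts per library, and whether depth limits their tests was not tested.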

Other observations

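Genes of the iron lists that the rule for naming did not reach are given here as values, chosen after they were seen. SLC39A14, a plasma membrane carrier of iron and zinc, fell in all 3 knockdowns (values for siNAE1 come first in each series of 3, then those for siUBE2M and for siURM1: log2 -0.51, -0.41 and -0.45, adjusted p = 3.1e-07, 1.5e-05 and 2.7e-05, edgeR). ALAS1, which starts heme synthesis, rose by 0.48 ± 0.07, 0.43 ± 0.07 and 0.25 ± 0.08 (SE; adjusted p = 1.9e-06, 1.5e-05 and 0.0165), and UROD, a further step, by 1.00 ± 0.07, 0.35 ± 0.07 and 0.30 ± 0.08 (adjusted p = 3.9e-13, 2.3e-04 and 0.0034). The lists that hold SLC39A14, ALAS1, UROD and BACH1 had calls in both directions in every knockdown, as counted above. In the list of iron-sulfur cluster assembly, 12, 5 and 6 of 23 tested genes rose and 4, 7 and 8 fell. Over all genes 27.6%, 22.7% and 20.8% rose and 27.1%, 22.6% and 20.8% fell. In that list HSCB fell (log2 -0.69, -0.93 and -0.81, adjusted p = 1.7e-06, 1.4e-08 and 1.7e-06), as did NFU1 (-0.96, -0.59 and -0.55, adjusted p = 7.1e-11, 9.0e-07 and 2.0e-05). BACH1, the heme-binding repressor of HMOX1 and of the ferritin genes, fell in siNAE1 and siUBE2M cells (-0.30 and -0.71, adjusted p = 0.0105 and 5.9e-07), with 0.04 ± 0.11 in siURM1 cells (adjusted p = 0.796). The siNAE1 call of BACH1 was lost without control replicate 3 (-0.22, adjusted p = 0.0866) or siNAE1 replicate 3 (-0.17, adjusted p = 0.136), and the siURM1 call of ALAS1 without control replicate 3 (0.23, adjusted p = 0.0522) or siURM1 replicate 1 (0.21, adjusted p = 0.143) and with scaling by total counts (0.16, adjusted p = 0.130). With limma the siNAE1 call of BACH1 was lost too (adjusted p = 0.0510 and 0.0507 with pseudocounts of 1 and 0.1). The 3 comparisons share the control libraries.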
